A study of Mus musculus with 3 samples.

Results

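The glucocorticoid receptor Nr3c1, the mineralocorticoid receptor Nr3c2 and 8 genes that the glucocorticoid receptor switches on directly were measured in the adult male hippocampus, after birth to an older or to a young mother. The 8 targets were Fkbp5, Sgk1, Tsc22d3, Zbtb16, Ddit4, Errfi1, Arrdc2 and Hif3a. Members were chosen by name, with earlier results of these data known. A probe belonged to the set if the gene name in the scanner files was 1 of these 10. This gave 14 probes of 39429 on the array, 3 for the receptors and 11 for the targets, and all 14 passed the filter on dim probes. The 10 genes stand among 17965 named genes with at least 1 probe that passed.

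The older mothers (AMA, advanced maternal age) were 15 to 18 months old at breeding and the young mothers (YMA, the controls) 3 months, and both were paired with virgin males of 3 months. Male offspring were killed at postnatal day 120 by cervical dislocation, and neither group received any other treatment that the labels name; the strain is not given in the sources used here. Each RNA sample was a pool of equal amounts from 3 males, and there were 3 pools per group, so animals within a pool cannot be told apart. Each of 3 two-colour arrays carried an older-mother pool in the dye Cy3 and a young-mother pool in the dye Cy5, always in that orientation, so the group and the dye cannot be told apart in any ratio below. In pooled tissue RNA, more cells of a type and more RNA per cell cannot be told apart either.

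Corticosterone, the main glucocorticoid of mice, reaches the hippocampus from the blood and binds both receptors there. The mineralocorticoid receptor binds it with the higher affinity and is largely occupied at rest, while the glucocorticoid receptor fills as the hormone rises with the daily rhythm and under stress. The occupied receptors move into the nucleus, bind DNA as dimers at a palindrome of paired 6-base arms, and raise the transcription of genes such as Fkbp5, whose protein in turn lowers the hormone affinity of the glucocorticoid receptor. Levels of these target transcripts are widely used as a readout of receptor activity. Transcription of Nr3c1 is itself subject to feedback by the hormone.

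The palindrome is shown first. Among the members searched only Sgk1 carried it, while Tsc22d3 and Arrdc2, with larger mean ratios below, did not. Whether the palindrome bears on any ratio was not tested. RefSeq promoters (build GRCm38.p6) were found for 8 of the 10 genes, all but Nr3c1 and Zbtb16. They had 16 start sites in all, of which 6 were of Sgk1, and only the 250 bases before each start were searched. The full palindrome, AGAACA followed by any 3 bases and TGTTCT, which reads the same on both strands, stood in 3 of 32851 promoters (0.00913%), and 1 of these 3 belonged to Sgk1. The other two belonged to Acnat2 and Gm35041. In Sgk1 it lay on chromosome 10 from 21993701 to 21993715, which ends 175 bases before 1 of the 6 Sgk1 starts and 951 bases before the start furthest downstream. The capitals mark the palindrome in the 250 bases before that start, chr10:21993640-21993889, plus strand.
Sgk1: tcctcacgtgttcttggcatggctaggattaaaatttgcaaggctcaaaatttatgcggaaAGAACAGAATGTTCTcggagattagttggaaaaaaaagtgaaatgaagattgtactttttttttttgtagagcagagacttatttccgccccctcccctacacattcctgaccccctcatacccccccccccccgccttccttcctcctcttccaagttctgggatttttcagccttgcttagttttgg

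The inner part of the palindrome, ACANNNTGT, which the full one contains, stood in 5.84% of all promoters and in 2 of the 16 member promoters, both of Sgk1. A single arm, AGAACA or TGTTCT as its reverse complement, stood in 16.1% of all promoters and in 4 of the 16, which were 3 of Sgk1 and 1 of Tsc22d3. The Tsc22d3 arm is in capitals in chrX:140600677-140600732, minus strand, which lies before the gene's start furthest upstream.
Tsc22d3: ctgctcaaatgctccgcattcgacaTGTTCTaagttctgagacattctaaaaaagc
The promoter windows of Fkbp5, Ddit4, Errfi1, Arrdc2, Hif3a and Nr3c2 held none of these strings, which says only that these letters are not in these 250 bases. Of 28 other glucocorticoid-induced genes, 24 had a promoter, 31 in all, and 0 held the full palindrome, 6 the inner part and 4 a single arm.

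Signals of the 3 arrays were alike. Over spots that are not controls, the median signal over local background ran from 58.0 to 62.3 intensity units in Cy3 and from 153 to 165 in Cy5, 0 spots were saturated, and no spot of a member was marked as non-uniform or outlying. All 3 arrays came from 1 slide and 1 scan. Of 11 measured markers of hippocampal neurons, all 11 were well above background in every pool, with summed levels from 47677 to 53064 normalised intensity units in older-mother and from 48755 to 51859 in young-mother pools. With 3 arrays the precision is low throughout, and nothing in the labels says whether pools share litters. The p-values rest on the spread of the 3 within-array ratios of a probe, moderated by the spread over all probes. A dye effect that is the same on every array shifts the mean ratio and does not enter that spread.

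The comparison asks whether receptors and targets differ in expression between sons of older and of young mothers. All 8 targets were higher in the older-mother pools and neither receptor passed the test (limma, Benjamini-Hochberg adjusted p under 0.05 over all 27631 probes tested, two-sided). Differences are given as log2 ratios of older over young, where 1 is a doubling, and the probe with the highest average intensity stands for its gene. Of all 17965 genes, 7.34% were called higher and 12.2% lower by the same rule. Because the members were chosen with earlier results known, their count is no independent test against these shares. The median of the 8 targets was 0.66, 0.78 and 0.65 on arrays 1, 2 and 3, against -0.03 on each array for the median of all genes. Without replicate 3 only Sgk1 stayed called, and 29 probes of the whole array were called higher. The ratios of the other 7 targets were then 0.44 (Fkbp5) to 1.11 (Tsc22d3), against 0.49 to 1.13 with all arrays, and 5 of them shared a limma adjusted p of 0.0515. The count was 8 without replicate 1 and 7 without replicate 2.

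The ratios also rest on the dye correction. Cy3 was the weaker channel, and raw Sgk1 signals over background were 4901, 5080 and 5371 units in the older-mother pools and 7138, 7421 and 7307 in the young-mother pools. An intensity-dependent loess curve then removed the average dye difference at each intensity. A dye effect particular to 1 probe would stay in its ratio. When each array was only centred on its median, which leaves the intensity-dependent part in, the median of all genes moved to -0.40. There 3 of 8 targets were called higher (Sgk1, Tsc22d3 and Arrdc2), Fkbp5 and Zbtb16 turned sign to -0.12 and -0.033, and Nr3c1 was called lower at -0.58. Relative to the median of all genes in those centred data, the 8 targets stood from 0.29 for Fkbp5 to 1.00 for Arrdc2, Nr3c2 at 0.31 and Nr3c1 at -0.18.

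**Figure D1:**
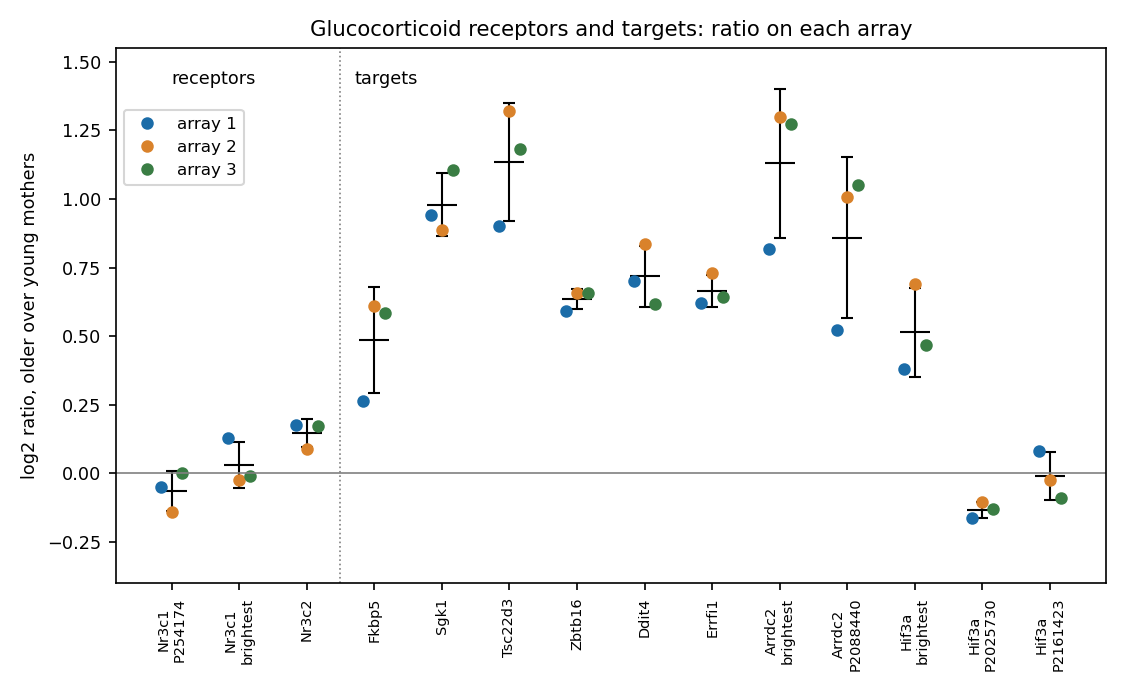
Log2 ratio of older over young mothers for each of the 14 probes, with 1 coloured point per array and a black line and bar for the mean ± SD of the 3 arrays. The brightest probe of every target lies above 0 on all 3 arrays, while the receptor probes and the other two Hif3a probes lie between -0.16 and 0.18.

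The receptors come first. Nr3c1, the glucocorticoid receptor, had log2 ratios of 0.13, -0.02 and -0.01 on arrays 1, 2 and 3 at its brighter probe, which lies on chromosome 18 from 39571641 to 39571700 on the minus strand (coordinates as in the array files, whose header names the build mm9). Its normalised log2 levels were 11.51, 11.41 and 11.57 in the older-mother pools and 11.38, 11.44 and 11.58 in the young-mother pools, and the groups overlap. The mean of 0.03 ± 0.08 (SD, n = 3) did not pass (limma adjusted p = 0.680), and it had a 95% interval from -0.10 to 0.16, a width set by 3 arrays. The dimmer Nr3c1 probe, 2482 bases away, had -0.05, -0.14 and -0.00 and a mean of -0.06 ± 0.07 (SD, n = 3, limma adjusted p = 0.376). The sign of the mean differed between the probes, and neither passed.

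Nr3c2, the mineralocorticoid receptor, was measured by 1 dim probe on chromosome 8 from 79766370 to 79766429, plus strand. Its levels were 8.09, 8.08 and 8.12 in the older-mother and 7.91, 7.99 and 7.95 in the young-mother pools. All 3 older-mother pools were above all 3 young-mother pools, as in 12.8% of all genes. The log2 ratios of 0.18, 0.09 and 0.17 averaged 0.15 ± 0.05 (SD, n = 3), short of the threshold (limma adjusted p = 0.0777, unadjusted p = 0.0214, 95% interval from 0.03 to 0.26). Among the alternatives, array weights alone put it past the threshold (0.11, limma adjusted p = 0.0445), and its sign turned under median centring (-0.088).

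Fkbp5, the co-chaperone that feeds back on the receptor, is the target most often used to read receptor activity. It had levels of 11.11, 11.61 and 11.66 in the older-mother pools and 10.85, 11.00 and 11.08 in the young-mother pools. The groups do not overlap, though the older-mother pool of array 1 lies just above the highest young-mother pool. The log2 ratios were 0.26, 0.61 and 0.59, with a mean of 0.49 ± 0.19 (SD, n = 3, limma adjusted p = 0.0225), a 1.40-fold difference. This was the smallest mean among the targets, and its call ended without replicate 2 (0.0684) or replicate 3 (0.0719) and with Agilent's processed signals (limma adjusted p = 0.0578).

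Sgk1, a kinase that acts on ion channels and transporters and takes its name from its induction by serum and glucocorticoids, had levels of 13.02, 13.04 and 13.18 in the older-mother pools and of 12.07, 12.16 and 12.07 in the young-mother pools. The gap between the groups was wider than the spread within either. The ratios were 0.94, 0.89 and 1.11, a mean of 0.98 ± 0.11 (SD, n = 3, limma adjusted p = 0.0117) or 1.97-fold, with a 95% interval from 0.83 to 1.12. It was the only one of the 8 called under every alternative, with limma adjusted p from 0.00103 to 0.0456. The probe lies on chromosome 10 from 21719507 to 21719566, plus strand, in build mm9. The palindrome and start sites above are in build GRCm38.p6, so the positions cannot be compared directly. Which of the Sgk1 start sites gave the RNA that the probe measured was not tested.

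Tsc22d3, also known as GILZ, a leucine zipper protein that mediates anti-inflammatory effects of glucocorticoids, had the largest mean of the set. Its levels were 12.36, 13.02 and 13.16 in the older-mother pools and 11.46, 11.70 and 11.97 in the young-mother pools, without overlap. The ratios of 0.90, 1.32 and 1.18 averaged 1.13 ± 0.22 (SD, n = 3, limma adjusted p = 0.0124), or 2.20-fold, and 99.9% of all genes had a lower mean ratio.

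Zbtb16, also known as PLZF, a zinc finger transcription factor, had the ratio that varied least between arrays among the members' brightest probes. Its levels of 12.64, 13.12 and 13.19 in older-mother pools stood against 12.05, 12.47 and 12.53 in young-mother pools. On array 1 both pools were low, by a like amount, so its ratios stayed close together at 0.59, 0.66 and 0.66 (mean 0.64 ± 0.04, SD, n = 3, limma adjusted p = 0.0124). The median level of all genes was 8.89 and 8.91 in the older-mother and young-mother pools of array 1 and 8.92 and 8.95 in those of array 2, so array 1 was not low by that much for all genes.

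Ddit4, also known as REDD1, an inhibitor of the growth-promoting kinase complex mTORC1, had levels of 13.87, 13.97 and 13.83 in the older-mother and 13.17, 13.14 and 13.21 in the young-mother pools. Its ratios of 0.70, 0.84 and 0.62 averaged 0.72 ± 0.11 (SD, n = 3, limma adjusted p = 0.0129), or 1.64-fold. Errfi1, an inhibitor of the EGF receptor, had levels of 12.22, 12.39 and 12.33 against 11.60, 11.66 and 11.69 in the young-mother pools. Its ratios of 0.62, 0.73 and 0.64 averaged 0.66 ± 0.06 (SD, n = 3, limma adjusted p = 0.0124), or 1.58-fold. Neither gene's groups overlap, and both ratios fell to near 0 under median centring (0.00025 for Ddit4 and 0.027 for Errfi1), about 0.4 above the median of all genes there (0.40 and 0.43).

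Arrdc2, an alpha-arrestin, a family of adaptors in the trafficking of membrane proteins, had levels of 10.27, 10.70 and 10.79 in the older-mother and 9.45, 9.40 and 9.52 in the young-mother pools. The older-mother pool of array 1 was the low one, and the young-mother pools lay close together. The ratios were 0.82, 1.30 and 1.27, a mean of 1.13 ± 0.27 (SD, n = 3, limma adjusted p = 0.0132), or 2.19-fold. The other Arrdc2 probe, which shares 49 of its 60 bases in the genome with the first and is no independent measurement, gave 0.52, 1.01 and 1.05 (mean 0.86 ± 0.29, SD, n = 3, limma adjusted p = 0.0170).

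Hif3a, a relative of the hypoxia-inducible factors of which some isoforms restrain the others, was the case in which probes of a gene differed. Its brightest probe, on chromosome 7 from 17616855 to 17616914, minus strand, had levels of 8.66, 9.39 and 9.45 in the older-mother pools and 8.28, 8.70 and 8.99 in the young-mother pools. The groups overlap, because both pools of array 1 were low, yet the older-mother pool was higher on every array. The ratios of 0.38, 0.69 and 0.47 averaged 0.51 ± 0.16 (SD, n = 3, limma adjusted p = 0.0180), or 1.43-fold, and the call ended when the pairing by array was left out (limma adjusted p = 0.132). The other two probes lie 3896 and 19611 bases further upstream in the direction of transcription and were dim, with at most 50.2 raw units over background in any pool. They gave means of -0.13 ± 0.03 and -0.01 ± 0.09 (SD, n = 3), with limma adjusted p of 0.0845 and 0.893. With the mean of the 3 probes Hif3a had 0.12 and was not called (limma adjusted p = 0.107). Over all probes, 9 of the 11 target probes were called higher, where 7.92% of all probes tested were.

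**Figure D2:**
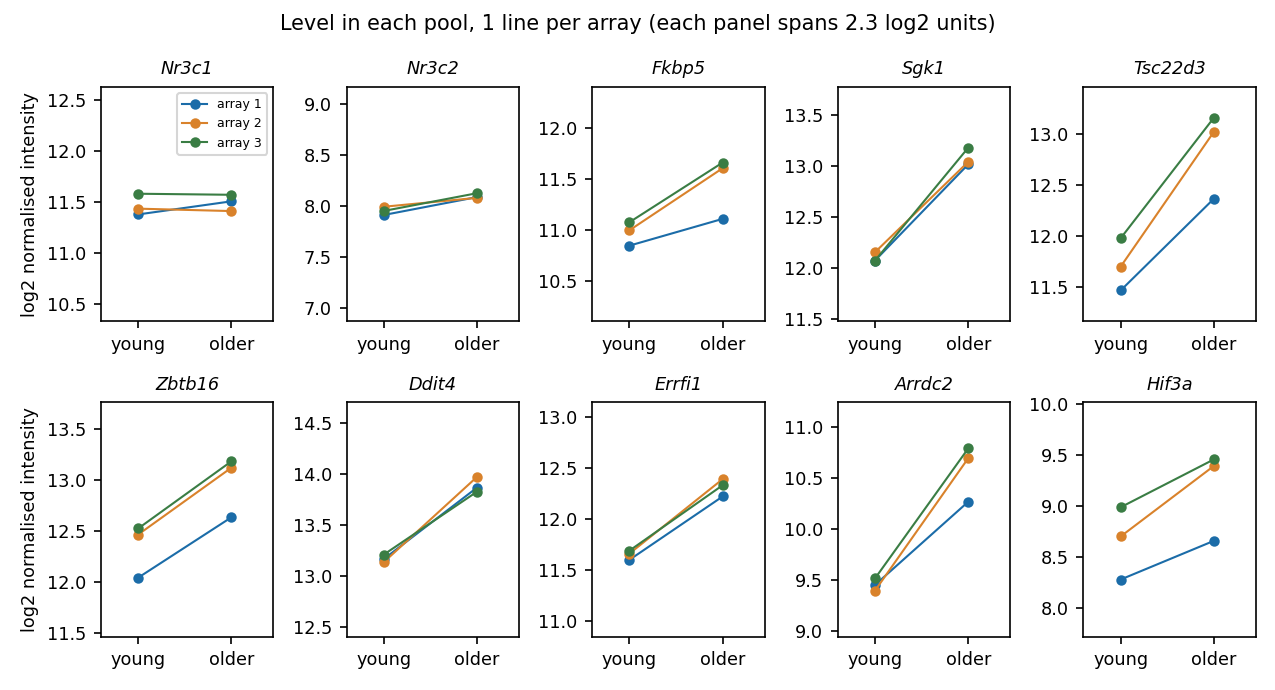
Normalised log2 intensity of the brightest probe of each gene in the young-mother and older-mother pool of each array, with a line joining the pools of 1 array and every panel spanning the same range. Lines rise on all 3 arrays for the 8 targets; for Tsc22d3, Zbtb16, Hif3a, Fkbp5 and, by a small margin, Errfi1 both pools of array 1 (blue) are the lowest.

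Between groups, 7 of the 8 targets and 1 of the 2 receptors (Nr3c2) had all older-mother pools above all young-mother pools, where 12.8% of all genes had. The opposite order, all older-mother pools below all young-mother pools, was found in 0 members and in 23.3% of all genes. Placed in order of the mean ratio, the genes ran Tsc22d3, Arrdc2, Sgk1, Ddit4, Errfi1, Zbtb16, Hif3a, Fkbp5, Nr3c2 and Nr3c1. For 6 of the 9 neighbouring pairs the difference changed sign between arrays, so they cannot be ordered. It kept 1 sign for Sgk1 over Ddit4 (0.24, 0.05 and 0.49 on the 3 arrays), Fkbp5 over Nr3c2 (0.09, 0.52 and 0.41) and Nr3c2 over Nr3c1 (0.05, 0.11 and 0.18), although the array ranges of Nr3c2 and Nr3c1 overlapped. Under median centring Nr3c2 and Fkbp5 changed places (-0.088 and -0.12).

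Targets were set against receptors array by array. All 8 targets had a higher ratio than Nr3c1 on every array, in 24 of 24 values, and also than Nr3c2, again in 24 of 24. These 24 values come from 8 genes on the same 3 arrays and are not independent. Of all genes, 65.1% had a lower mean ratio than Nr3c1 and 85.9% a lower one than Nr3c2. The rest did not, so a ratio above either receptor is not particular to the targets. The median of the targets minus Nr3c1 was 0.53, 0.81 and 0.66 (mean 0.67 ± 0.14, SD, n = 3), and minus Nr3c2 it was 0.49, 0.70 and 0.48 (mean 0.55 ± 0.12, SD, n = 3). These differences are a description, with no test. Such a difference says that the ratios were unequal, not that the receptors did not change. The part of the dye in it cannot be told apart from that of the group. Under median centring the distance to Nr3c2 shrank to 0.15.

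The targets also differed between arrays. For 6 of 8 targets the ratio was lowest on array 1 (Fkbp5, Tsc22d3, Zbtb16, Errfi1, Arrdc2 and Hif3a), and for 6 of 8 it was highest on array 2. Among all 1318 genes called higher, 41.5% were lowest on array 1 and 32.5% highest on array 2. The targets share their pools and arrays, so these are not independent observations.

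**Figure D3:**
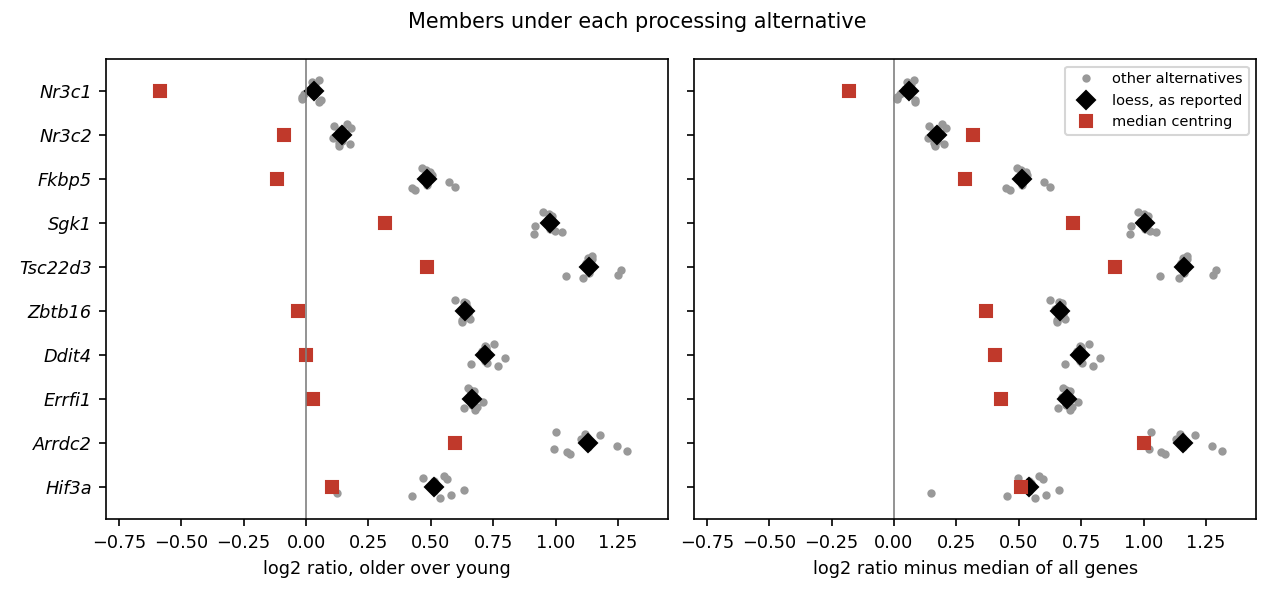
Mean log2 ratio of each member as reported (black diamond), under median centring (red square) and under the other alternatives (grey points), on the left as computed and on the right minus the median of all genes in the same data. On the right all 8 targets and also Nr3c2 stay above 0 in every alternative, and Nr3c1 does so in all but median centring. Under median centring Nr3c1 lies at -0.18 and Nr3c2 at 0.31.

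Other genes of the hormone's pathway were described from lists, with counts beside those of all genes (7.34% higher, 12.2% lower). Of the list genes named by smallest p and called, only Nfkbia, Pdk4, Dnaja1 and Dnajb1 stayed called without replicate 3. The calls of Cxcl10, Ppargc1a, Cyp11a1, Abcb1a, Neurod6, Zbtb20, Slc4a5 and Camp were lost whichever of the 3 replicates was left out. Of 28 other glucocorticoid-induced genes, 18 were higher, 0 lower and 10 not called by limma, with 22 higher and 1 lower at an unadjusted p under 0.05. Their median ratio was 0.40 against -0.03 for all genes. Nfkbia, the inhibitor of NF-kappaB, had ratios of 0.80, 0.85 and 0.85, and Pdk4, which restrains glucose oxidation, had 1.05, 1.26 and 1.39. Cebpd, a transcription factor, averaged 0.68 ± 0.08 and Mfsd2a, a lipid transporter of the blood-brain barrier, 0.81 ± 0.18 (each SD, n = 3, limma adjusted p = 0.0124 and 0.0132). The metallothioneins Mt1 and Mt2, zinc-binding proteins and classic hormone-induced genes, did not pass, at -0.11 ± 0.20 and 0.27 ± 0.25 (each SD, n = 3); they were picked after their values were seen. Without replicate 3 the count of 18 was 2, and under median centring 8 were higher and 13 lower, with a list median 0.27 above that of all genes.

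Of 12 genes that glucocorticoids repress, 6 passed the filter, and the probes of Il1a, Il1b, Il6, Tnf, Cxcl1 and Icam1 did not. Of the 6, 1 was higher, 1 lower and 4 not called (limma), with a median of -0.02 against -0.03 for all genes. Cxcl10, a chemokine, was lower at -0.61, -0.64 and -0.19 (mean -0.48 ± 0.25, SD, n = 3, limma adjusted p = 0.0316), and was well above background in 1 of 3 older-mother pools. Its call ended with processed signals, where the ratio was -1.63 (limma adjusted p = 0.0528), without the pairing by array (0.119) and under median centring, where it stood 0.089 above the median of all genes. Crh, the releasing hormone at the head of the stress axis, was measured here in hippocampal RNA only. Its ratio was higher at 0.12, 0.40 and 0.26 (mean 0.26 ± 0.14, SD, n = 3, limma adjusted p = 0.0456). That call ended in 6 alternatives, among them the deposited table (0.0602), Agilent's processed signals (0.0788) and the fits without replicate 2 (0.213) or replicate 3 (0.123). Ptgs2, which makes prostaglandins, had 0.41 ± 0.32 and Nos2, a nitric oxide synthase, -0.11 ± 0.12 (each SD, n = 3), and neither passed.

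The unliganded receptor is held by Hsp90 and its partners, and 9 of 15 such chaperones were higher, 0 lower and 6 not called by limma (10 and 0 at an unadjusted p under 0.05), with a median of 0.27. The Hsp40 co-chaperones Dnaja1 and Dnajb1 rose by 0.83 ± 0.02 and 1.33 ± 0.21, the Hsp70-Hsp90 linker Stip1 by 0.52 ± 0.18 and the constitutive Hsp70 Hspa8 by 0.34 ± 0.09 (each SD, n = 3, limma adjusted p from 0.0113 to 0.0209). Several of these are also heat shock genes. Fkbp4, the relative of Fkbp5 that competes with it on the receptor complex, was not among the genes named by smallest p. Its ratio was 0.06 ± 0.08 (SD, n = 3) and did not pass. The count fell to 2 without replicate 2 or replicate 3. Under median centring 1 was higher and 11 lower, with the list median 0.07 below that of all genes (-0.07), so the direction of this list was not kept there. Stip1 and Hspa8 turned sign there, and set against the all-gene median they lay at 0.29 and -0.14. Dnaja1 fell to 0.08 under median centring and was not called (limma adjusted p = 0.183), at 0.49 above that median. Dnajb1 kept its call there at 0.61. With the mean over its probes Dnaja1 was at 0.54 and still called.

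Of 15 coregulators of nuclear receptors 1 was higher, the coactivator Ppargc1a at 0.24 ± 0.09, and 1 lower, the orphan receptor Nr2f2 at -0.34 ± 0.09 (each SD, n = 3, limma adjusted p = 0.0372 and 0.0203). Ppargc1a turned sign under median centring (-0.33, which is 0.07 above the median of all genes there), and its call also ended with the mean over its probes (0.076, limma adjusted p = 0.317), with processed signals and with offset 16. Ep300 and Ncoa3, both coactivators, had 0.28 ± 0.17 and 0.18 ± 0.11 (each SD, n = 3) and did not pass. Of 10 genes of corticosteroid synthesis, metabolism and export, 8 passed the filter, 0 were higher (also at an unadjusted p under 0.05, limma) and 2 lower. These were Abcb1a, the drug exporter of brain endothelium, at -0.25 ± 0.06, and Cyp11a1, the first enzyme of steroid synthesis, at -0.26 ± 0.06 (each SD, n = 3, limma adjusted p = 0.0272 and 0.0270); Cyp11a1 turned to 0.051 under median centring, which is 0.45 higher than the all-gene median. Abcb1b and Srd5a1, the next by smallest p, had -0.15 ± 0.04 and -0.08 ± 0.20 (each SD, n = 3) and did not pass. Hsd11b1, which regenerates active hormone within cells and was not among the genes named by smallest p, was at -0.01 ± 0.13 (SD, n = 3). Of 7 sodium transport genes that respond to the mineralocorticoid receptor in kidney, 5 passed the filter and 0 were called by limma (1 at an unadjusted p under 0.05, Slc9a3, not well above background in any older-mother pool).

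The relatives of the members did not share one direction. Of 19 measured, 4 were higher, 5 lower and 10 not called (limma), with a median of 0.06. In the kinase family of Sgk1, Sgk3 was lower at -0.31, -0.22 and -0.29, and Sgk2 was lower with a mean of -0.55 ± 0.25 (SD, n = 3, limma adjusted p = 0.0259). The Sgk3 call ended with the mean over its probes (-0.19, limma adjusted p = 0.0589), with processed signals (0.0566) and without replicate 2 (0.0846). In the arrestin family of Arrdc2, Arrdc1 was lower at -0.31, -0.32 and -0.32 and Arrdc4 at -0.25, -0.33 and -0.36, although the mean of all Arrdc4 probes was 0.057. Txnip, a relative that binds thioredoxin, was higher at 0.47, 0.76 and 0.76, as was Arrdc3 at 0.56 ± 0.25 (SD, n = 3, limma adjusted p = 0.0243). With the mean over their probes Txnip was at 0.36 and Arrdc1 at -0.21, and both were still called. Also called were Fkbp8 at -0.25, Tsc22d4 at 0.23 and the zinc finger factor Zbtb20 at 0.26. Under median centring Zbtb20 stood at the median of all genes (-0.0039 relative to it). Hif1a and Epas1, the other factors of the Hif3a family, did not pass, at 0.17 ± 0.29 and 0.05 ± 0.04 (each SD, n = 3). Beyond Txnip, Arrdc1, Arrdc4 and Sgk3, the relatives were named after their values were seen, and without replicate 3 the counts of higher and of lower relatives were both 0.

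**Figure D4:**
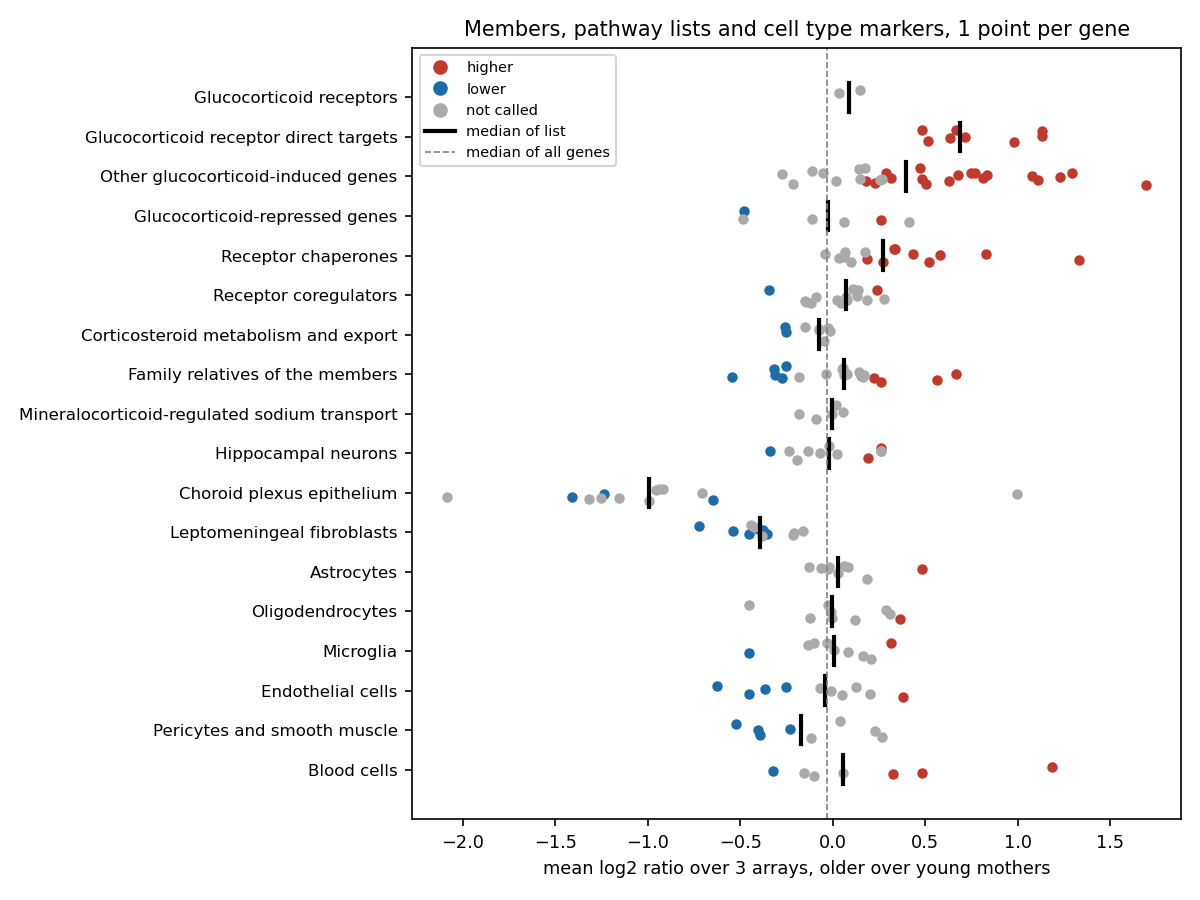
Mean log2 ratio over the 3 arrays for each gene (1 point) of the members, the pathway lists and the cell type marker lists, coloured by call, with a black line at each list's median and a dashed line at -0.03, the median of all genes. The 8 targets have a median of 0.69, the other induced genes 0.40 and the receptor chaperones 0.27, while choroid plexus markers lie at a median of -0.99.

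Some markers of other cell types also differed between the groups. Of 13 choroid plexus markers 3 were lower, 0 higher and 10 not called (limma; 12 lower and 0 higher at an unadjusted p under 0.05), with array medians of -0.83, -2.02 and -0.33; 1 of the 13 had a mean above 0. Without replicate 2 the count of lower markers was 6, and without replicate 1 or replicate 3 it was 0. Their summed level ran from 18796 to 107325 normalised intensity units in older-mother and from 114477 to 163764 in young-mother pools, and 12 of the 13 were well above background in every pool. Slc4a5, a bicarbonate transporter, and Sostdc1, a secreted antagonist of BMP and Wnt signals, stood at -0.65 ± 0.39 and -1.24 ± 0.78 (each SD, n = 3). Of 12 leptomeningeal fibroblast markers 6 were lower (Ogn at -0.40 and Fmod at -0.36 among them) and 0 higher (limma; 10 and 0 at an unadjusted p under 0.05), with summed levels from 7548 to 12507 against 10258 to 12972. The calls of Ogn and Fmod ended without the pairing by array (limma adjusted p = 0.113 and 0.140) and without replicate 2 or replicate 3. The leptomeningeal medians were -0.37, -0.57 and -0.17 on arrays 1, 2 and 3, where the target medians were 0.66, 0.78 and 0.65. The part of choroid plexus and meningeal tissue in the target ratios was not tested.

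Markers of glial, vascular and blood cells are given beside the targets. Of 9 astrocyte markers, 1 was higher (Gfap at 0.48 ± 0.12, SD, n = 3), and their median was 0.03. With the mean over its probes Gfap was at 0.20 and not called (limma adjusted p = 0.0872). Aldh1l1 did not pass, at -0.13, or 0.085 with the mean over its probes. Of 9 oligodendrocyte markers, 1 was higher (Ermn at 0.36; Opalin did not pass at -0.46), and their summed level was 77592 to 100189 in older-mother and 73661 to 82099 units in young-mother pools, which overlap. Of 9 microglial markers, C1qa was higher at 0.31 and Cx3cr1 lower at -0.46. Of 10 endothelial markers, Flt1 was higher at 0.38 and 4 were lower, Cldn5 most at -0.63. With the mean over its probes Flt1 was at 0.16 and not called (limma adjusted p = 0.0779). Of 8 pericyte and smooth muscle markers, 4 were lower and 0 higher (limma; 4 lower and 2 higher at an unadjusted p under 0.05), among them Vtn at -0.39 and Acta2 at -0.40. Kcnj8 and Rgs5, named after their values were seen, were at 0.27 and 0.23 and did not pass. Of 7 measured blood cell markers, 3 were higher, S100a9, S100a8 and Camp, and 1 lower, Hbb-b1 at -0.32; S100a9 was at 1.19 ± 0.50 (SD, n = 3). Of 11 hippocampal neuron markers, 2 were higher (Zbtb20 and Neurod2) and 1 lower (Neurod6 at -0.34). Under median centring Gfap, Ermn, C1qa and Flt1 turned sign with the shift of all genes, and stood 0.25, 0.11, 0.15 and 0.16 above the median of all genes. The part of these cell types in the target ratios was not tested.

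The genes outside all lists whose ratios lay nearest to the target median over the 3 arrays, by Euclidean distance, were Slc5a3, a transporter of myo-inositol (0.65, 0.78 and 0.71), Rin2 (0.71, 0.71 and 0.65), Luc7l (0.75, 0.80 and 0.62), P4ha2, a collagen prolyl hydroxylase subunit (0.58, 0.84 and 0.68), and Smim3 (0.63, 0.75 and 0.56). The distances ran from 0.059 to 0.10 on the log2 scale, over 3 arrays.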

How the data were processed

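Two-colour Agilent arrays compared older-mother (Cy3) with young-mother (Cy5) pools on 3 arrays. Feature Extraction 10.10.1.1 made the deposited scanner files, whose mean and median intensity values are raw and whose processed intensity values are corrected for background and dye, per the file headers. Deposited flags of 0 or 1 mark spot quality (outlying, non-uniform, saturated) and signal well above background. The deposited table holds log2 ratios; its making is not given in the sources used here, but normexp with offset 50 and loess on median signals gave the same values within 5.0e-10, as Cy3 over Cy5.

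Ratios were computed in limma 3.58.1 (R 4.3.3, jsonlite 2.0.0): normexp with offset 50 on mean signals, loess with span 0.3, weight 0 for control, non-uniform or outlying spots, spots averaged per probe. Member values differed from the deposited ones by at most 0.0605 on any array. Normalised levels are the loess-corrected channel values. Probes well above background in 1 channel on all arrays were kept (27631 of 39429). An intercept was tested with lmFit and eBayes (2 residual and 3.42 prior degrees of freedom). The offset pulls ratios of dim probes towards 0. Accessions matched RefSeq (GRCm38.p6) for 28025 probes.

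The pipeline was tested on signals drawn for this comparison with 27631 probes: of 100 probes changed by 0.5 on the log2 scale, 98 were called (median estimate 0.41), and of 100 changed by 1, 100 (0.83). Among unchanged probes there were 2 false calls. Every probe was given noise of the same spread, and the dye difference was a smooth curve of intensity. These rates therefore do not carry over to real probes that vary more or have a dye effect of their own.

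Members and lists were chosen with earlier results of these data known. The rule named every member, up to 4 genes of each pathway list and 2 of each marker list by smallest p, and the 5 genes nearest to the target median. The alternatives tried were offset 16, no background correction, processed signals, median centring, scaling, the deposited table, no or a stricter filter, variance trend, array weights, separate channels without the pairing, the mean over probes, and leaving out each replicate.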

Additional observations from a re-analysis of the deposited data

How the results depend on the processing

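Over 15 alternatives, Sgk1 kept its call in all. The count of 8 higher targets was 7 to 9 member genes in 13 of the 15 (9 with array weights, where Nr3c2 passed), 3 under median centring, where 1 member (Nr3c1) was called lower, and from 1 to 8 without each replicate in turn. With separate channels and no replicate block it was 7, without Hif3a; the arrays pair the pools physically, and no other pairing exists. Signs turned under median centring for Nr3c1 (-0.58), Nr3c2 (-0.088), Fkbp5 (-0.12) and Zbtb16 (-0.033). Nr3c1, near 0, also turned with array weights (-0.0064), with the mean over its probes (-0.016) and without replicate 1 (-0.017, up to 0.059 without replicate 2). The target median minus Nr3c2 moved to 0.15 under median centring; minus Nr3c1 it stayed within 1 SD in all 15. Probes called higher and lower, 2189 and 2946, became 1169 and 1452 with Agilent's processed signals, 5997 and 17006 under median centring, 5754 and 7552 with array weights, and ran from 29 to 1459 and from 0 to 1906 without each replicate; without replicate 3, 8423 probes had an unadjusted limma p under 0.05. Of 480 recomputed list counts, 337 stayed within 1.5 times and 143 did not. The dim Hif3a, Nr3c2 and Cxcl10 probes limit what their ratios show.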
